A study of Mus musculus with 25 samples.

Results

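Alox12b, Aloxe3, Cers3, Elovl4, Abca12, Pnpla1 and Ugcg make, carry or oxidise the special ceramides of a cornified surface, and Pla2g4d, Pla2g4e and Pla2g4f encode cytosolic phospholipases A2 of squamous epithelia. These 10 genes were taken by symbol from the 21106 genes listed for pups and the 19942 listed for adults. Each symbol occurred once in either list, and all 10 passed the filter on low values in both experiments. They are 7 barrier lipid genes and 3 phospholipases, named by symbol.

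Esophagus RNA was sequenced to compare a cancer-derived change in the transcription factor NRF2 (gene Nfe2l2) with loss of its inhibitor KEAP1 in squamous cells. The pup experiment held 3 libraries each of KEAP1flox/flox::K5Cre, of NRF2L30F/L30F::K5Cre and, as controls, of wild-type mice, taken at 7 to 10 days of age. The adult experiment held 4 libraries each of KEAP1flox/flox::K5CreERT2, of homozygous NRF2L30F/L30F::K5CreERT2, of heterozygous NRF2L30F/+::K5CreERT2 and, as controls, of wild type, from mice of 6 to 9 weeks whose tamoxifen (100 µg/g body weight) had been given 1 week earlier. L30F is a knock-in of phenylalanine for leucine at codon 30 of NRF2, in its DLGex motif. Cre ran from the keratin 5 promoter, active in squamous cells, and was constitutive in the pup experiment and tamoxifen-inducible in the adult one. Wild-type mice are given without a Cre allele in the genotype, and whether they carried one is not stated. RNA came from esophagus as a whole, so a change can reflect fewer cells of a type or less RNA per cell, which cannot be told apart.

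Cornified squamous cells seal the surface with ceramides whose acyl chain is ultra-long and carries linoleate at its end. Such acylceramides are glucosylated, packed into lamellar bodies and secreted, and their linoleate is then oxidised so that the lipid can be bound to the protein envelope of the dead cell. The mouse esophagus, unlike the human one, has a cornified surface. Cytosolic phospholipases A2 act on membrane phospholipids and release fatty acids, including the arachidonate used for eicosanoids, or transfer them to other lipids.

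Depth and labels were checked first. The 9 pup libraries held 18791974 to 19650133 reads over the listed genes. Adult depth differed by genotype: 27529872 to 32281399 reads in wild type, 12814894 to 16921613 in L30F/+, 10867764 to 11643385 in L30F/L30F and 22484305 to 31344260 with KEAP1 loss. Thinning all libraries of an experiment to equal depth left the number of members called the same in every comparison. Keap1 was lower in each KEAP1-loss library than in each wild-type library, with means of 779.9 ± 50.5 against 1069.2 ± 21.8 normalised counts in pups (SD, n = 3) and 757.4 ± 40.6 against 1148.3 ± 49.8 in adults (n = 4). Nfe2l2 itself, whose level does not test the L30F allele, was lower in all adult mutants, at 3564.8 ± 385.5 in L30F/+, 1457.2 ± 304.5 in L30F/L30F and 4302.0 ± 96.2 with KEAP1 loss against 5661.6 ± 371.4 in wild type, and all 3 were called. In pups it was 1301.3 ± 38.2 in wild type, 1640.7 ± 370.9 in L30F/L30F (not called) and 2513.1 ± 439.8 with KEAP1 loss (called higher). Nqo1, the standard NRF2 target, rose in all 5 mutant groups, by 7.01 and 7.28 on the log2 scale in the pup groups and by 1.95, 2.51 and 2.45 in the adult L30F/+, L30F/L30F and KEAP1-loss groups. One L30F/L30F pup library, number 1, stood apart in markers of gland, stomach, thyroid and airway, which summed to 32328.6 there, to 4492.9 in KEAP1-loss pup library 2 and to 11.9 to 365.6 in the other pups. Leaving out either of these 2 libraries, L30F/L30F 1 or KEAP1-loss 2, ended none of the pup calls against wild type given below. It did end all member calls between the 2 mutant pup groups. Squamous markers were present throughout: none of the 12 was at 0 in any group.

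In all values below, a normalised count is a library's reads divided by its size factor, and a log2 fold change is a difference of log2(normalised count + 1), which understates the change of very low genes. The 2 experiments were normalised separately, so pup and adult levels are not comparable. "Called" means an adjusted p under 0.05 from limma with Benjamini-Hochberg adjustment over all genes tested (21007 in pups, 19857 in adults). Nothing in the labels says that each library was a separate animal, so these p-values measure the spread between libraries, which may be technical.

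In pups, all 10 genes rose with both genotypes, by between 6.51-fold and 445-fold in L30F/L30F and between 9.28-fold and 532-fold with KEAP1 loss. In L30F/L30F pups 22.0% of all genes tested were called higher and 17.1% lower, and with KEAP1 loss 26.3% and 23.2%. For every member, each mutant library exceeded each wild-type library, as was so for 27.0% of all genes in L30F/L30F and 30.3% with KEAP1 loss. The members' median log2 fold changes were 4.61 and 5.10, beside medians over all genes of -0.03 and -0.05. Both comparisons use the same 3 wild-type libraries. All 20 calls held when any 1 of the 9 libraries was left out.

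**Figure D1:**
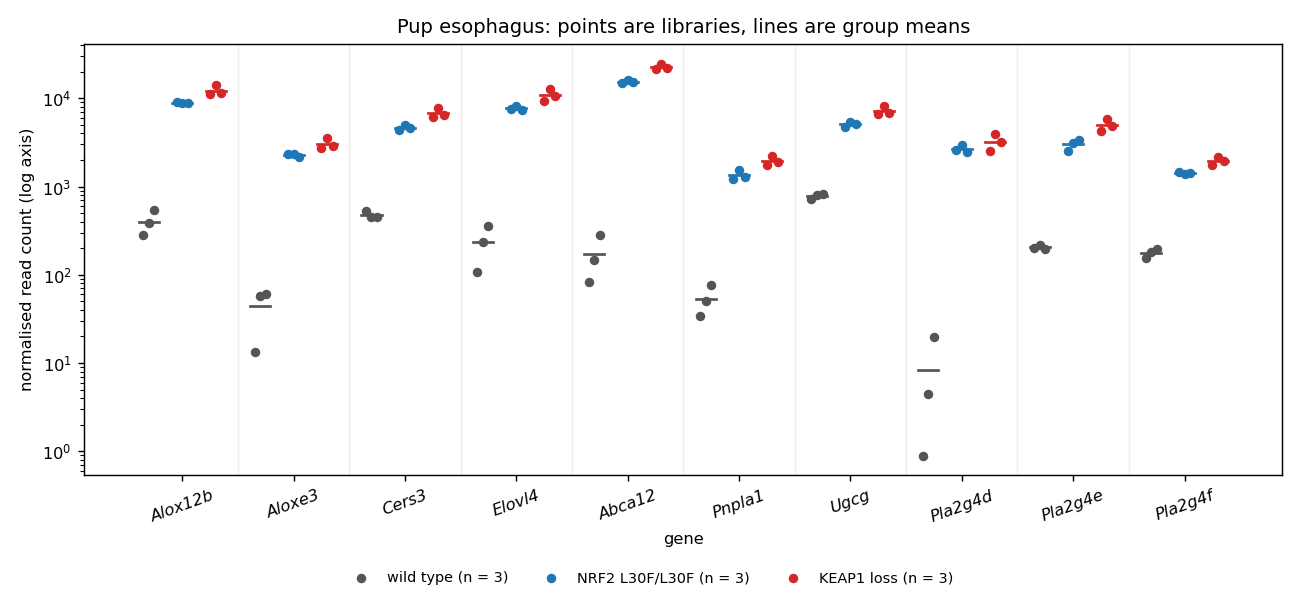
Normalised read counts of the 10 genes in the 9 pup libraries, on a log axis; points are libraries and lines are group means (n = 3 per group). In each gene the mutant libraries lie above all wild-type libraries, and Pla2g4d has the lowest wild-type values, down to 0.89.

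The enzymes that build the acylceramide rose together. Cers3, the ceramide synthase that accepts ultra-long acyl chains, had 529.7, 448.3 and 451.8 normalised counts in wild-type pups, 4336.7, 5005.3 and 4604.6 in L30F/L30F and 6160.2, 7783.8 and 6394.0 with KEAP1 loss. Its wild-type values lay close together, far below both mutant groups, and it rose by 3.29 on the log2 scale in L30F/L30F (SE 0.11, adjusted p = 6.3e-09, 9.75-fold) and by 3.82 with KEAP1 loss (adjusted p = 1.7e-09, 14.2-fold). Elovl4, the elongase that extends fatty acids to ultra-long chains, read 106.8, 233.0 and 358.5 in wild type, 7601.4, 8273.6 and 7351.0 in L30F/L30F and 9410.1, 12801.7 and 10666.2 with KEAP1 loss. It spread widely in wild type (coefficient of variation 54.1%) and narrowly in L30F/L30F (6.16%). Elovl4 rose 37.1-fold in L30F/L30F (log2 5.21, SE 0.39, adjusted p = 3.3e-05) and 52.1-fold with KEAP1 loss (log2 5.70, adjusted p = 1.3e-05).

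Pnpla1, the transacylase that places linoleate on the ceramide, had 33.8, 50.7 and 76.2 counts in wild-type pups, 1201.5, 1539.6 and 1292.4 in L30F/L30F and 1748.3, 2205.3 and 1904.9 with KEAP1 loss. The groups did not overlap, and it rose by 4.69 (SE 0.25, adjusted p = 9.5e-07, 25.8-fold) and by 5.23 (adjusted p = 3.1e-07, 37.6-fold) on the log2 scale. Ugcg, the enzyme that glucosylates ceramide, was already abundant in wild type at 716.6, 794.3 and 819.7 counts. It read 4717.1, 5340.4 and 5121.6 in L30F/L30F and 6708.3, 8269.0 and 6751.3 with KEAP1 loss. Its rises, 2.70 (SE 0.10, adjusted p = 1.3e-08, 6.51-fold) and 3.21 (adjusted p = 2.7e-09, 9.28-fold), were the smallest of the 10 genes and were well outside the spread of the libraries.

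Abca12, the transporter that loads glucosylated ceramide into lamellar bodies, went from 81.9, 145.9 and 282.4 counts in wild type to 14953.7, 16161.2 and 15240.5 in L30F/L30F and 21694.4, 24728.1 and 22194.9 with KEAP1 loss. The wild-type libraries spread widely (coefficient of variation 60.2%), and the lowest mutant library lay far above all of them. The changes were 6.68 (SE 0.38, adjusted p = 6.7e-06, 102-fold) and 7.24 (adjusted p = 2.9e-06, 151-fold) on the log2 scale.

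Alox12b and Aloxe3 encode the pair of lipoxygenases that act one after the other on the linoleate of acylceramide. Alox12b had 279.5, 382.4 and 540.8 counts in wild-type pups, 9014.1, 8885.6 and 8877.0 in L30F/L30F and 11255.9, 13961.7 and 11498.8 with KEAP1 loss. The 3 L30F/L30F libraries had a coefficient of variation of 0.86%, and Alox12b rose 23.0-fold (log2 4.53, SE 0.20, adjusted p = 3.4e-07) and 31.4-fold with KEAP1 loss (log2 4.97, adjusted p = 1.3e-07). Aloxe3 had 13.4, 56.9 and 60.8 counts in wild type, 2336.2, 2311.5 and 2138.4 in L30F/L30F and 2763.8, 3526.9 and 2866.1 with KEAP1 loss. Wild-type library 1 was far below the others. Aloxe3 rose by 5.93 (SE 0.52, adjusted p = 9.4e-05, 60.8-fold) and by 6.35 (adjusted p = 4.2e-05, 81.7-fold). Without wild-type library 1 these were 5.24 and 5.67.

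Of the phospholipases, Pla2g4d, a form described in inflamed skin, was nearly silent in wild-type pups: it read 0.89, 4.45 and 19.7 normalised counts, which were 1, 5 and 23 whole reads. It had 2595.1, 2919.5 and 2474.2 counts in L30F/L30F and 2553.6, 3907.2 and 3203.0 with KEAP1 loss. The mutant groups overlapped each other and lay far above wild type. The log2 fold changes were 8.80 (SE 0.78, adjusted p = 0.00013, 445-fold) and 9.05 (adjusted p = 7.6e-05, 532-fold), and these sizes rest on the few wild-type reads: without wild-type library 1 they were 7.97 and 8.22, and without library 3 they were 9.69 and 9.95. Ranked from the highest, the change of Pla2g4d was number 7 of 21007 genes in L30F/L30F and number 12 with KEAP1 loss.

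Pla2g4e, an enzyme that moves an acyl chain onto the amine of phosphatidylethanolamine, read 199.4, 218.8 and 196.0 in wild-type pups, 2518.4, 3073.4 and 3389.8 in L30F/L30F and 4213.6, 5821.2 and 4878.8 with KEAP1 loss. It rose 14.5-fold (log2 3.85, SE 0.13, adjusted p = 1.3e-08) and 24.0-fold (log2 4.58, adjusted p = 2.8e-09). Pla2g4f, the third of this group, read 155.8, 180.6 and 195.1 in wild type, 1464.5, 1378.0 and 1408.2 in L30F/L30F and 1747.3, 2179.3 and 1952.4 with KEAP1 loss. It rose by 3.0 (SE 0.10, adjusted p = 1.2e-08, 7.99-fold) and by 3.46 (adjusted p = 3e-09, 11-fold), with no overlap between the 3 groups.

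Libraries of a pup group ranked alike across genes in wild type and with KEAP1 loss, and not in L30F/L30F. In wild-type pups library 1 was lowest and library 3 highest for 8 of the 10 genes, the exceptions being Cers3 and Pla2g4e, and with KEAP1 loss library 1 was lowest and library 2 highest for all 10. In L30F/L30F the lowest library was number 1 for 5 genes, number 2 for 1 and number 3 for 4, and the highest was number 1 for 3, number 2 for 6 and number 3 for 1. The 15 markers of cornifying keratinocytes summed to 14232.1, 15323.9 and 17055.3 in the wild-type libraries 1 to 3, to 141501.3 to 147455.0 in L30F/L30F and to 192946.1, 231511.6 and 200811.8 in the KEAP1-loss libraries 1 to 3. Of these markers 12 rose in L30F/L30F and 13 with KEAP1 loss, and none fell. The 12 squamous markers summed to 161999.3 to 203128.6 in wild type, 268936.0 to 312507.5 in L30F/L30F and 353691.1 to 398839.0 with KEAP1 loss. Of these 12, 8 rose and 2 fell in L30F/L30F, and 9 rose and 2 fell with KEAP1 loss. Krt13 rose from a mean of 54938.3 in wild type to 149599.7 and 208009.3 in those groups. In the same groups Krt4 fell from 58044.7 to 13874.2 and 19431.9, and Krt15 from 24077.0 to 4371.8 and 3144.9. Of 8 fibroblast markers, 7 fell in both genotypes. With the mean level of the squamous markers as a covariate, all 10 genes were still called higher in both genotypes, at log2 changes of 2.90 to 12.01 in L30F/L30F. That fit cannot part squamous content from genotype, because the markers themselves changed with genotype. The squamous sums of wild-type and mutant pups did not overlap, though the covariate was the mean log2 level of the markers and not their sum. The part of the squamous, cornifying and fibroblast shifts in the rises was not tested.

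**Figure D2:**
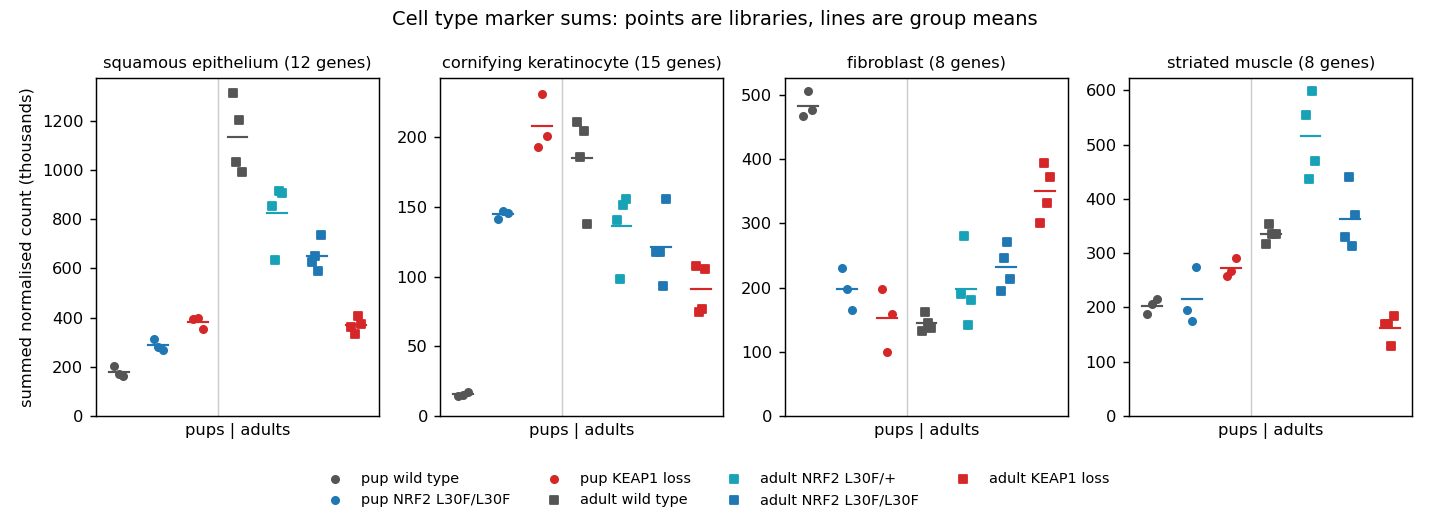
Summed normalised counts (axis in units of 1000) of 4 cell type marker lists in every library; points are libraries, lines are group means, and a grey line parts the separately normalised pups (left) and adults (right). Cornifying markers lie at 14232.1 to 17055.3 in wild-type pups and from 141501.3 upward in all mutant pups, and the squamous sum of adults falls from 992615.7 or more in wild type to 406082.9 or less with KEAP1 loss. That sum is mostly Krt4 and Krt13 in wild-type adults and does not describe the list. Of the 12 squamous markers, 4 were called higher and 5 lower with adult KEAP1 loss.

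The mutant pup groups also differed from each other in places. The mean of KEAP1 loss was the higher for all 10 genes, and 4 were called lower in L30F/L30F, where 2.40% of all genes were called lower and 1.76% higher. These were Pla2g4e (log2 -0.73, SE 0.13, adjusted p = 0.030), Cers3 (-0.54, SE 0.11, adjusted p = 0.032), Ugcg (-0.51, SE 0.10, adjusted p = 0.031) and Pla2g4f (-0.46, SE 0.10, adjusted p = 0.042). The other 6 had differences of -0.26 (Pla2g4d) to -0.56 (Abca12) and were not called, with adjusted p of 0.23 to 0.88. These calls held in 2 of 9 leave-outs for Cers3, 3 for Ugcg, 3 for Pla2g4e and 1 for Pla2g4f, with adjusted p up to 0.13. All 4 ended without wild-type library 2 or 3, L30F/L30F library 1 or 2 or KEAP1-loss library 2. Of these, L30F/L30F library 1 and KEAP1-loss library 2 were those with high gland, stomach, thyroid and airway markers (sums of 32328.6 and 4492.9). Without KEAP1-loss library 1 only Pla2g4e, and without library 3 only Ugcg, was still called, and Pla2g4f also ended without L30F/L30F library 3.

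Because the genes rose together in pups, the 250 bases before their start sites were read from RefSeq (GRCm38.p6; the deposited values were made on GRCm39, so no other coordinate is given). An entry was found for 9 of the 10 genes, all but Aloxe3. In all, 6 motifs were searched on both strands and also counted in 32851 mouse promoter windows of the same length. The antioxidant response element core TGACNNNGC, the letters that NRF2 and its small MAF partners bind, occurred in 2 of the 9 windows, beside 10.2% of all windows. Those 2 windows follow, in lower case with the match in capitals, which lies on the strand opposite to the one printed.
Cers3: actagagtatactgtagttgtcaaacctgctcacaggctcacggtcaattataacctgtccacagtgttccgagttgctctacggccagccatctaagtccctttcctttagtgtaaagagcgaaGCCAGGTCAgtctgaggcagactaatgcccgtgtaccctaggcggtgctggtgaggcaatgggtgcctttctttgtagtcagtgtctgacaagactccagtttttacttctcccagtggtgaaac
Ugcg: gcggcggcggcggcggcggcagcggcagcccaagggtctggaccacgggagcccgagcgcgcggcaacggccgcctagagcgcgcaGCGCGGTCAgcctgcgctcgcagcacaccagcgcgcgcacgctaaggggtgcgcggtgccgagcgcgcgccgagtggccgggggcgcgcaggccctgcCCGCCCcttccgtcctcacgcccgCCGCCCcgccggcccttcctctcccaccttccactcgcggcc
The Cers3 window is chr7:66743254-66743503 on the plus strand, with its match GCCAGGTCA 125 to 117 bases upstream. The Ugcg window is chr4:59189300-59189549 on the plus strand, with GCGCGGTCA 164 to 156 bases upstream and 2 GC boxes, also in capitals.

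The windows of the 3 neighbouring phospholipase genes on chromosome 2 are shown to set their unlike adult behaviour, described below, beside their sequence.
Pla2g4d: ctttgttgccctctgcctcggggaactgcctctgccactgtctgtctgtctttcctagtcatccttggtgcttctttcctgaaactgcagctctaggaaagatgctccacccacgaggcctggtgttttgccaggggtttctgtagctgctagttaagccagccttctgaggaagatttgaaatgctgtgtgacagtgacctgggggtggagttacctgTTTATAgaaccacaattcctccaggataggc
Pla2g4e: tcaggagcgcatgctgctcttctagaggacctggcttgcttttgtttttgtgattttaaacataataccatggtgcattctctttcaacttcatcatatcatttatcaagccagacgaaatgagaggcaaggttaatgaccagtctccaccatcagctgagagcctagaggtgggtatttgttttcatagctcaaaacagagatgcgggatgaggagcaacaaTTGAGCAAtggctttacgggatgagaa
Pla2g4f: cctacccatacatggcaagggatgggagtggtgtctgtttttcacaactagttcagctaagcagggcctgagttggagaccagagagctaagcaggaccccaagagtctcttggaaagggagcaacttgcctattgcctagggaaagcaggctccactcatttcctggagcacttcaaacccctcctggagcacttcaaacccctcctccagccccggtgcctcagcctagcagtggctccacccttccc
They are chr2:120289070-120289319, chr2:120245336-120245585 and chr2:120314166-120314415, all read on the minus strand. Capitals mark a match to the TATA box TATAAA on the other strand, 31 to 26 bases upstream of Pla2g4d, and TTGAGCAA, which on the other strand matches the C/EBP motif TTGCNNAA, 27 to 20 bases upstream of Pla2g4e. None of the motifs searched was found in the Pla2g4f window. A TATA box occurred in 12.4% and the C/EBP motif in 9.56% of all windows. The GC box GGGCGG, in 32.7% of all windows, occurred in Alox12b, Elovl4 and Ugcg, and the AP-1 motif TGANTCA (6.75%) and the E-box CACGTG (6.02%) in none of the 9. The element core and the AP-1 motif can overlap, and a match describes letters, not binding.

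In adults fewer of the genes were called, in both directions. With wild type as reference, 1 of the 10 genes was called in L30F/+, 5 in L30F/L30F and 5 with KEAP1 loss, and in L30F/L30F and with KEAP1 loss 4 of those were lower and 1 higher. The share of all genes called higher and lower was 4.80% and 4.90% in L30F/+, 11.8% and 10.4% in L30F/L30F, and 24.1% and 22.7% with KEAP1 loss. Over both directions 9290 of 19857 genes were called with KEAP1 loss, so the 5 of 10 members were near the background there. The members' median log2 fold changes were -0.43, -0.31 and -0.02, and those of all genes 0.01, -0.01 and -0.01. The 3 comparisons use the same 4 wild-type libraries.

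**Figure D3:**
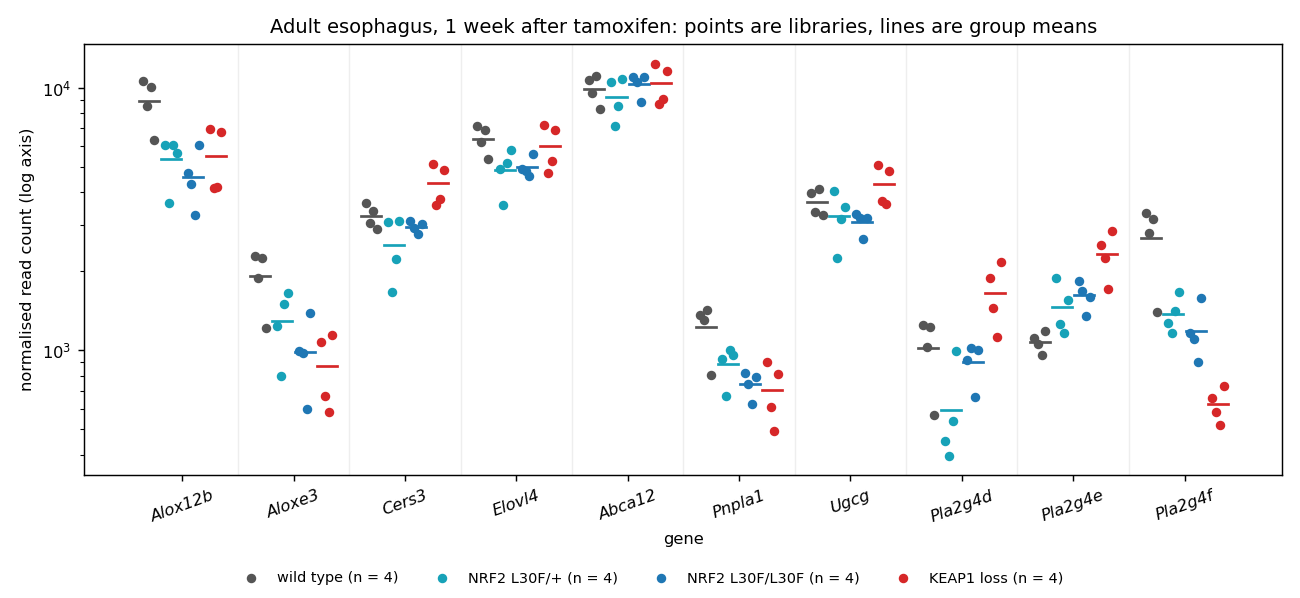
Normalised read counts of the 10 genes in the 16 adult libraries, on a log axis; points are libraries and lines are group means (n = 4 per group). Pla2g4f steps down from wild type to KEAP1 loss (means 2668.0 to 623.4) and Pla2g4e steps up (1077.0 to 2331.7), while Abca12 has group means of 9241.5 to 10407.4.

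Pla2g4f changed most. Wild-type adults had 3319.1, 2793.8, 3165.6 and 1393.3 normalised counts, L30F/+ 1272.1, 1162.1, 1412.1 and 1670.3, L30F/L30F 1159.5, 1099.4, 904.9 and 1577.9, and KEAP1 loss 658.0, 583.1, 520.4 and 732.1. Every KEAP1-loss library lay below every library of the other groups, while wild-type library 4 fell among the L30F libraries. Against wild type the log2 fold change was -0.89 in L30F/+ (SE 0.24, adjusted p = 0.030), -1.12 in L30F/L30F (adjusted p = 0.0039, 2.18-fold lower) and -2.03 with KEAP1 loss (adjusted p = 5.7e-06, 4.08-fold lower). The L30F/L30F and KEAP1-loss calls held in all 16 leave-outs. The L30F/+ call ended without wild-type library 1, 2 or 3 or L30F/+ library 1, 2 or 3 (adjusted p 0.054 to 0.11). In the order wild type, L30F/+, L30F/L30F, KEAP1 loss, the L30F groups were not distinguished (log2 -0.23, adjusted p = 0.54), and KEAP1 loss was below both (differences of 1.14, adjusted p = 0.0011, and 0.91, adjusted p = 0.011).

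Pla2g4e went the other way. Its counts were 1109.5, 1052.7, 959.4 and 1186.3 in wild type, 1892.2, 1256.7, 1167.5 and 1548.6 in L30F/+, 1842.5, 1686.3, 1351.2 and 1591.8 in L30F/L30F, and 2520.0, 2248.5, 1714.3 and 2844.1 with KEAP1 loss. All L30F/L30F and KEAP1-loss libraries exceeded all wild-type libraries. It rose by 0.58 in L30F/L30F (SE 0.16, adjusted p = 0.016, 1.5-fold) and by 1.09 with KEAP1 loss (adjusted p = 4.1e-05, 2.13-fold), and the L30F/+ difference of 0.42 was not called (adjusted p = 0.11). The KEAP1-loss call held in all 16 leave-outs, and the L30F/L30F call in 14, ending without wild-type library 3 (0.051) or L30F/L30F library 1 (0.053). In the order of the means, wild type and L30F/+ and also L30F/+ and L30F/L30F (0.16, adjusted p = 0.54) were not distinguished, and L30F/L30F was below KEAP1 loss (-0.51, adjusted p = 0.027).

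Pla2g4d was not called against wild type in any adult group. It read 1253.1, 1026.6, 1223.8 and 564.6 in wild type, 450.8, 396.9, 536.5 and 994.4 in L30F/+, 916.6, 1018.1, 666.5 and 1004.2 in L30F/L30F, and 1887.3, 1443.4, 1124.8 and 2170.2 with KEAP1 loss. The wild-type and L30F/+ groups each held 1 library apart from the others, number 4 in both, which lay toward the other group. Differences from wild type were -0.80 (SE 0.30, adjusted p = 0.11), -0.13 (0.80) and 0.73 (0.063) on the log2 scale. The L30F/+ difference was called without wild-type library 4 (-1.06, adjusted p = 0.026) or without L30F/+ library 4 (-1.08, adjusted p = 0.025), and the KEAP1-loss difference without L30F/+ library 4 (adjusted p = 0.029) or KEAP1-loss library 3 (0.90, adjusted p = 0.034). L30F/+ was below KEAP1 loss by 1.53 (adjusted p = 0.00079), with no overlap and in all 16 leave-outs.

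Of the barrier enzymes, the lipoxygenases and Pnpla1 fell. Alox12b had 10552.2, 8526.4, 10026.5 and 6334.8 counts in wild type, 6037.5, 3632.4, 6071.1 and 5647.8 in L30F/+, 4745.3, 4284.6, 3286.3 and 6029.2 in L30F/L30F, and 6970.1, 4141.4, 4174.3 and 6748.5 with KEAP1 loss. Both L30F groups lay below all wild-type libraries, and the KEAP1-loss group overlapped wild-type library 4. Alox12b fell by 0.96 on the log2 scale in L30F/L30F (SE 0.24, adjusted p = 0.0098, 1.94-fold) and by 0.70 with KEAP1 loss (adjusted p = 0.023, 1.63-fold). The L30F/+ difference was -0.73 (adjusted p = 0.064) and was called without wild-type library 4 (adjusted p = 0.028). The L30F/L30F call held in 16 of 16 leave-outs, and the KEAP1-loss call in 12, ending without wild-type library 1 or 3 or KEAP1-loss library 2 or 3 (adjusted p 0.063 to 0.075).

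Aloxe3 had 2283.4, 1890.2, 2243.6 and 1219.2 counts in wild type, 1231.9, 798.1, 1498.1 and 1658.3 in L30F/+, 992.3, 976.7, 597.7 and 1380.8 in L30F/L30F, and 1077.2, 669.3, 580.4 and 1146.9 with KEAP1 loss. Only the KEAP1-loss group lay below all wild-type libraries. It fell by 0.97 in L30F/L30F (SE 0.30, adjusted p = 0.033) and by 1.15 with KEAP1 loss (adjusted p = 0.0057, 2.23-fold), and the L30F/+ difference was -0.57 (adjusted p = 0.26). The KEAP1-loss call held in all 16 leave-outs, while the L30F/L30F call ended without wild-type library 1, 2 or 3 or L30F/L30F library 1, 2 or 3 (adjusted p 0.055 to 0.095).

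Pnpla1 had 1362.1, 1303.1, 1425.4 and 801.9 counts in wild type, 926.0, 672.0, 999.1 and 955.9 in L30F/+, 818.7, 746.2, 623.6 and 793.3 in L30F/L30F, and 904.8, 607.8, 493.3 and 812.9 with KEAP1 loss. Apart from wild-type library 4, all wild-type values were above all mutant values. It fell by 0.69 in L30F/L30F (SE 0.20, adjusted p = 0.025) and by 0.80 with KEAP1 loss (adjusted p = 0.0044), and the L30F/+ difference was -0.44 (adjusted p = 0.18; without wild-type library 4, -0.63 and 0.035). The L30F/L30F call ended without wild-type library 1, 2 or 3 or L30F/L30F library 3 (adjusted p 0.066 to 0.075), and the KEAP1-loss call held in all 16 leave-outs. For Alox12b, Aloxe3 and Pnpla1 no pair of mutant groups was distinguished in adults.

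Cers3, Ugcg, Elovl4 and Abca12 were not called against wild type. Cers3 had 3634.2, 3045.0, 3400.2 and 2892.9 counts in wild type, 3068.1, 1667.9, 2223.5 and 3095.9 in L30F/+, 3092.0, 2916.7, 2766.6 and 3014.5 in L30F/L30F, and 5136.9, 3560.8, 3765.9 and 4847.8 with KEAP1 loss. The KEAP1-loss libraries were above all libraries of both L30F groups and overlapped wild type. Differences from wild type were -0.41 (SE 0.17, adjusted p = 0.14), -0.13 (0.61) and 0.40 (0.061). The last was called without L30F/+ library 1 (adjusted p = 0.048), 2 (0.017) or 4 (0.048) or KEAP1-loss library 2 (0.038). Ugcg ranged over 3270.6 to 4128.2 in wild type, 2244.0 to 4022.2 in L30F/+, 2644.4 to 3297.0 in L30F/L30F and 3596.0 to 5054.2 with KEAP1 loss, with differences from wild type of -0.21, -0.26 and 0.21 (adjusted p 0.43, 0.27 and 0.30).

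Elovl4 ranged over 5360.0 to 7147.4 counts in wild type, 3562.3 to 5771.0 in L30F/+, 4619.3 to 5572.3 in L30F/L30F and 4716.4 to 7224.6 with KEAP1 loss. All groups overlapped wild type, and its differences were -0.41 (SE 0.15, adjusted p = 0.099), -0.36 (0.10) and -0.10 (0.62). Abca12, which had risen 102-fold and 151-fold in pups, ranged over 8291.4 to 11047.8 in wild-type adults, 7123.1 to 10800.9 in L30F/+, 8793.6 to 11006.6 in L30F/L30F and 8682.1 to 12339.8 with KEAP1 loss. Its differences from wild type were -0.11 (SE 0.15, adjusted p = 0.68), 0.06 (0.80) and 0.06 (0.75).

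**Figure D4:**
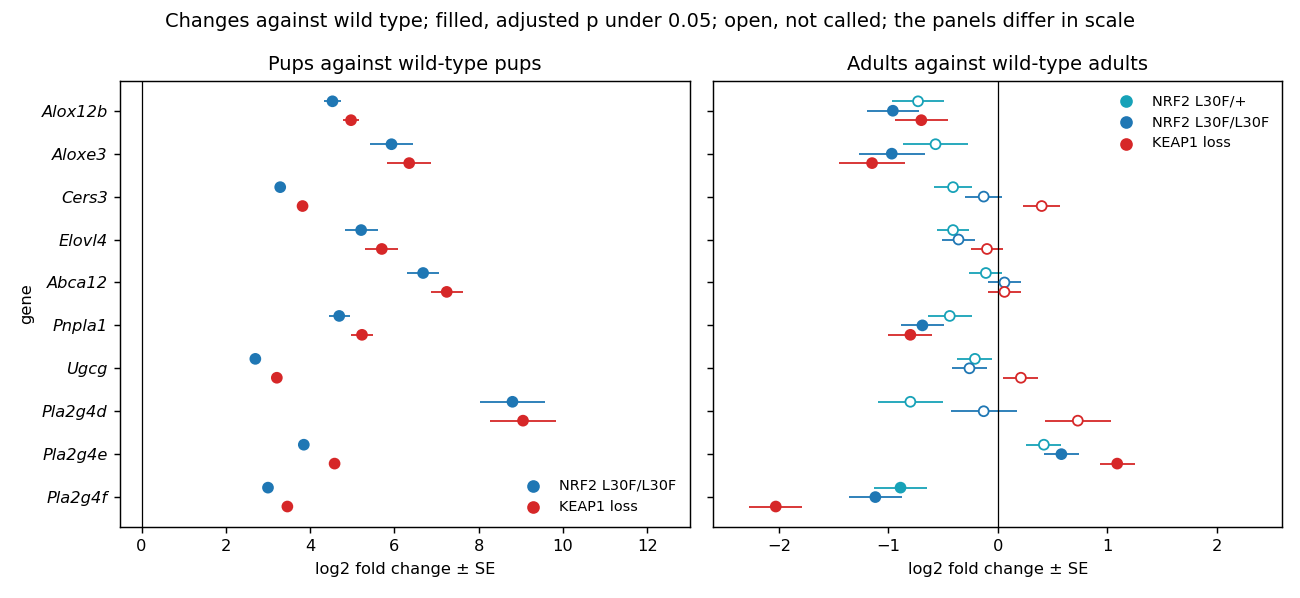
Log2 fold changes against wild type, with SE bars, for pups (left) and adults (right), whose horizontal scales differ; filled points have an adjusted p under 0.05. All pup points lie at 2.70 or higher, while adult points lie between -2.03 (Pla2g4f, KEAP1 loss) and 1.09 (Pla2g4e, KEAP1 loss).

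Between the adult mutants, KEAP1 loss and L30F differed in 4 and 5 of the genes. None of the 10 was called between L30F/L30F and L30F/+ by limma, where 8.07% of all genes were higher and 8.29% lower. With limma-voom none was called either. At an unadjusted p under 0.05 there was 1, Pla2g4d (log2 0.68, adjusted p = 0.14), which was called without L30F/+ library 4 (0.96, adjusted p = 0.034). Against KEAP1 loss, L30F/L30F was lower in Cers3 (-0.54, adjusted p = 0.028), Ugcg (-0.47, adjusted p = 0.040) and Pla2g4e and higher in Pla2g4f, with 12.9% of all genes higher and 13.5% lower. L30F/+ was lower than KEAP1 loss in Cers3 (-0.81, adjusted p = 0.00099), Ugcg (-0.42, adjusted p = 0.039), Pla2g4d and Pla2g4e (-0.67, adjusted p = 0.0028) and higher in Pla2g4f, with 21.6% of all genes higher and 23.2% lower. Over both directions 8891 of 19857 genes were called there, so the 5 of 10 members were near the background.

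Some of these calls rested on single libraries. For L30F/L30F against KEAP1 loss, Cers3 and Ugcg were not called without L30F/L30F library 2, 3 or 4 or KEAP1-loss library 1 or 4 (adjusted p 0.051 to 0.12), and Pla2g4e was not called without L30F/L30F library 3 or 4 or KEAP1-loss library 1, 2 or 4 (adjusted p 0.050 to 0.092). Pla2g4d, lower in L30F/L30F by 0.85 (adjusted p = 0.051), was called without wild-type library 4, L30F/+ library 2 or 4 or KEAP1-loss library 3. For L30F/+ against KEAP1 loss, Ugcg was not called without L30F/+ library 2 or 3 or KEAP1-loss library 1 or 4 (0.069 to 0.13), while Aloxe3 was called without L30F/+ library 2 (0.80, adjusted p = 0.045) and Elovl4 without KEAP1-loss library 2 (-0.42, adjusted p = 0.039).

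Within adult groups most of the genes shared their lowest library. Wild-type library 4 was lowest for 9 of 10 genes, all but Pla2g4e, and L30F/+ library 2 for 9, all but Pla2g4e. L30F/L30F library 3 was lowest for all 10, and KEAP1-loss libraries 1 and 4 exceeded libraries 2 and 3 in each gene. The cornifying markers summed to 211111.1, 186093.3, 204676.3 and 138082.7 in wild type, 140422.8, 98267.4, 151360.7 and 155795.1 in L30F/+, 117843.4, 117479.5, 93097.0 and 156039.3 in L30F/L30F, and 107639.4, 74553.5, 76563.0 and 105443.1 with KEAP1 loss. Of the 15, 1 rose and 8 fell in L30F/L30F, and 1 rose and 9 fell with KEAP1 loss. Squamous marker sums were 992615.7 to 1314462.4 in wild type, 635438.2 to 915121.7 in L30F/+, 588435.5 to 736190.8 in L30F/L30F and 333114.7 to 406082.9 with KEAP1 loss. Of the 12 squamous markers, 2 fell in L30F/+, 3 rose and 5 fell in L30F/L30F, and 4 rose and 5 fell with KEAP1 loss. In wild type the sum was mostly Krt4 and Krt13, so it does not describe the list. Krt4 (544720.0 ± 94198.4 in wild type, 9558.8 ± 6120.7 with KEAP1 loss) and Krt13 (468715.2 ± 59255.2 and 100438.7 ± 16241.2) fell with KEAP1 loss. Krt14 rose (9088.1 ± 387.3 and 115817.3 ± 6859.6), and Trp63, Cdh1 and Perp were not called. Of 8 striated muscle markers, which summed to 316361.5 to 352999.8 in wild type, 5 rose in L30F/+ (437455.5 to 598399.1), 1 fell in L30F/L30F and 7 fell with KEAP1 loss (128137.2 to 183724.0). Of 8 fibroblast markers, at 132666.3 to 161891.3 in wild type, 2 rose in L30F/+ (141577.9 to 280454.6), 4 rose and 1 fell in L30F/L30F (194627.2 to 271195.7), and 5 rose and 1 fell with KEAP1 loss (301315.8 to 393850.0). Of 8 leukocyte markers, at 5987.3 to 10791.9 in wild type, none was called in L30F/+ (8056.4 to 11770.1), 6 rose in L30F/L30F (10664.9 to 20416.2) and 7 rose with KEAP1 loss (17542.3 to 23976.5). The part of the cornifying, fibroblast and leukocyte shifts in the members' changes was not tested.

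With a marker covariate, the adult KEAP1-loss calls were mostly lost. Striated muscle sums were 316361.5 to 352999.8 in wild type and 128137.2 to 183724.0 with KEAP1 loss, and neither these nor the squamous sums overlapped. Either covariate was the mean log2 level of its markers, not their sum. With KEAP1 loss 7 of 8 striated markers fell, and 4 of 12 squamous markers rose and 5 fell. Because the markers themselves changed with genotype, these fits cannot part marker level from genotype. With either level, calls over all genes also fell in several comparisons, as given at the end. With the striated muscle level in the fit, Pla2g4e alone was called (log2 2.23, adjusted p = 0.0051), Pla2g4f was at -1.98 (adjusted p = 0.14) and Alox12b changed sign to 0.16 (adjusted p = 0.93). With the squamous level in the fit, Pla2g4f alone was called (-2.35, adjusted p = 0.034) and Pla2g4e was at 1.33 (adjusted p = 0.062). In L30F/L30F the same covariates left 5 and 4 of the genes called, Aloxe3 being the one lost with the squamous level (adjusted p = 0.055).

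The difference between experiments was tested for each genotype. For all 10 genes the change against wild type was smaller in adults than in pups, both for L30F/L30F and for KEAP1 loss, where 19.9% and 26.5% of the 19031 genes tested were lower and 13.6% and 20.6% higher. The adult minus pup difference of log2 fold changes ran from -2.96 (Ugcg, SE 0.19, adjusted p = 5.2e-12) to -8.92 (Pla2g4d, SE 0.83, adjusted p = 2.5e-05) for L30F/L30F. For KEAP1 loss it ran from -3.00 (Ugcg, SE 0.19, adjusted p = 1.8e-12) to -8.33 (Pla2g4d, adjusted p = 2.3e-05). All 20 differences were called in each of 25 leave-outs. Without wild-type pup library 1 those of Aloxe3 moved from -6.90 to -6.21 for L30F/L30F and from -7.51 to -6.82 for KEAP1 loss, and those of Pla2g4d lay at -8.10 and -7.50 without that library and at -9.82 and -9.23 without wild-type pup library 3. Age, the Cre system and the time since recombination differ together between the experiments and cannot be told apart. The wild-type reference also differed: Pla2g4d had 1 to 23 whole reads in wild-type pup libraries and 840 to 1967 in wild-type adult ones. Wild-type means in pups and adults, each on its own scale, were 170.0 and 9900.8 for Abca12 and 776.9 and 3682.4 for Ugcg. Each of the 10 genes had the higher wild-type mean in adults. The part of this in the differences was not tested.

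The other cytosolic phospholipases A2 were set beside the 3 members. Pla2g4a, the widely expressed form that releases arachidonate, rose in all 5 mutant groups: by 2.02 and 2.28 in L30F/L30F and KEAP1-loss pups, and by 0.69 (adjusted p = 0.0019), 1.19 (3e-06) and 1.27 (2.3e-07) in L30F/+, L30F/L30F and KEAP1-loss adults. It had 441.6 ± 75.7 counts in wild-type adults and 707.5 ± 78.3, 1000.5 ± 74.7 and 1057.9 ± 98.4 in those groups (SD, n = 4), with no overlap with wild type. Pla2g4b rose by 7.90 (SE 1.31, adjusted p = 0.0032) and 8.73 (adjusted p = 0.0014) in pups, from 19.5 ± 28.5 counts in wild type (n = 3), and fell in the adult groups (log2 -1.66, -1.47 and -1.05). Its values are uncertain, since in RefSeq it overlaps Sptbn5 and lies beside Jmjd7. Pla2g4c was low, with group means of 3.58 to 17.2 counts.

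Among other phospholipases A2, 18 of 24 listed genes were tested, of which 9 rose and 3 fell in L30F/L30F pups, 10 and 3 in KEAP1-loss pups, 3 and 2 in L30F/+ adults, 2 and 5 in L30F/L30F adults, and 5 and 8 in KEAP1-loss adults. The secreted forms Pla2g2f and Pla2g3 fell in adults: Pla2g2f had 1078.2 ± 241.2 counts in wild type, 530.7 ± 158.9 in L30F/L30F (log2 -1.03, adjusted p = 0.0024) and 85.4 ± 13.7 with KEAP1 loss (-3.63, adjusted p = 2.7e-09). Pla2g3 fell in the 3 adult groups (log2 -1.17, -1.92 and -2.70). Of 14 tested prostanoid and leukotriene enzymes, 7 rose and 1 fell in L30F/L30F pups, 7 and 3 in KEAP1-loss pups, 4 and 1, 5 and 0, and 10 and 2 in the adult groups in the same order. Ptgs2, the inducible cyclooxygenase, rose by 4.20 and 3.63 in pups and by 1.62 (adjusted p = 0.015), 2.57 (0.00026) and 4.25 (3.3e-07) in adults, where KEAP1 loss gave 1634.4 ± 381.2 counts against 98.1 ± 72.8 in wild type.

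The rest of the ceramide route was called higher more often in pups than lower. Of 16 other ceramide backbone enzymes 8 rose and 1 fell in L30F/L30F pups and 11 rose and 3 fell in KEAP1-loss pups, with medians of 0.50 and 0.61. Degs2, the desaturase and hydroxylase that makes phytoceramide, went from 8.43 ± 3.92 counts in wild-type pups to 1563.5 ± 121.0 in L30F/L30F (log2 7.45, adjusted p = 2.4e-08, 175-fold). In adults the counts were 1 and 1, 2 and 3, and 4 and 4 over L30F/+, L30F/L30F and KEAP1 loss. Over all genes 4.80%, 11.8% and 24.1% were called higher and 4.90%, 10.4% and 22.7% lower in those adult groups, so the KEAP1-loss counts were near the background. There Sptlc3, a subunit of serine palmitoyltransferase, fell in all 3 groups (log2 -0.85, -1.55 and -2.75), and Cers6, a ceramide synthase for shorter chains, rose by 0.65 in L30F/L30F and 1.02 with KEAP1 loss. Of 19 genes of ceramide turnover 12 and 13 rose in the pup groups and 1 and 3 fell, with the sphingomyelinase Smpd3 at 5.58 and 6.08 and the ceramidase Acer1 at 4.53 and 4.81. In adults 3 fell in L30F/+, 2 fell in L30F/L30F, and 2 rose and 5 fell with KEAP1 loss, where Acer1 fell by 2.01.

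Of the acyl chain genes, 15 of 24 tested rose and 1 fell in L30F/L30F pups, and 17 rose and 2 fell with KEAP1 loss. Cyp4f39, the hydroxylase of the chain end to which linoleate is joined, went from 201.6 ± 28.6 counts in wild-type pups to 3414.6 ± 228.2 in L30F/L30F (log2 4.08, adjusted p = 1.4e-09) and 4535.3 ± 186.0 with KEAP1 loss. In adults 23 of the 26 listed were tested, and 3 fell in L30F/+, 7 fell in L30F/L30F, and 6 rose and 9 fell with KEAP1 loss. Of 16 tested lipoxygenases and later envelope genes, 9 rose and 3 fell in each pup genotype. Sdr9c7, the dehydrogenase that follows the lipoxygenases, rose by 4.82 and 5.36, and Alox15, another lipoxygenase, fell in both (log2 -5.56 and -5.29, 44.9 ± 38.6 and 48.2 ± 31.4 against 1682.7 ± 162.6 counts in wild type). In adults 2 rose and 3 fell, 3 and 4, and 4 and 4, and the lipases Lipk and Lipm fell with KEAP1 loss (log2 -2.80 and -1.56). Of 16 lipid transporters 9 rose and 1 fell, and 10 and 4, in pups, and 1 and 0, 3 and 0, and 9 and 4 in adults, where Abca13 (3.10) and Pltp (0.94) rose with KEAP1 loss.

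**Figure D5:**
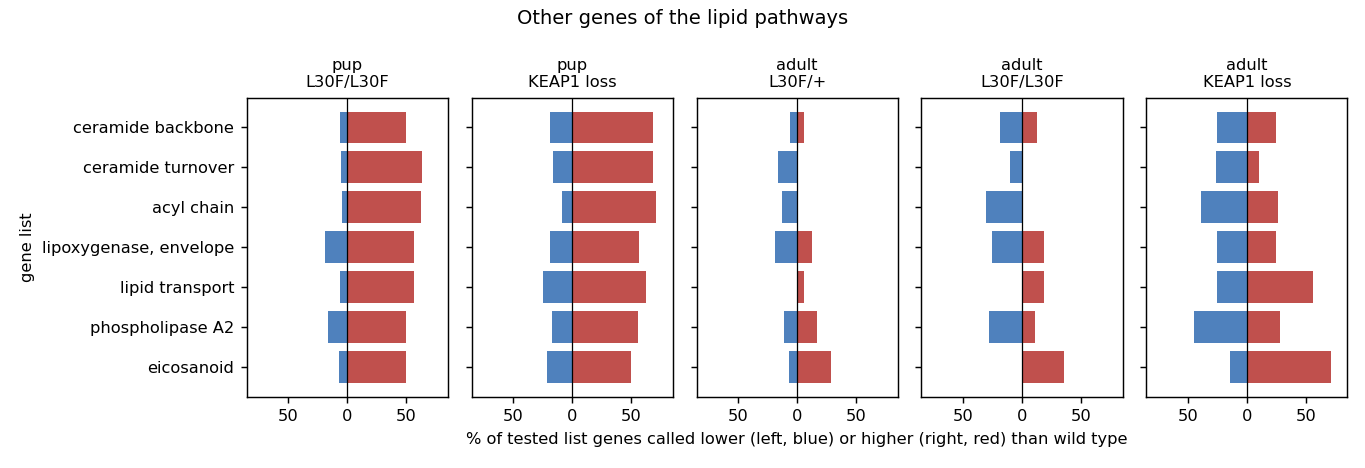
Share of the tested genes of 7 lipid gene lists, the 10 members left out, called higher (right, red) or lower (left, blue) than wild type in each genotype. In pups the red bars are the longer in every list, whereas in L30F/+ and L30F/L30F adults most genes of every list were not called. Over all genes tested, 22.0% were called higher and 17.1% lower in L30F/L30F pups, and 26.3% and 23.2% in KEAP1-loss pups. In adults these shares were 4.80% and 4.90% in L30F/+, 11.8% and 10.4% in L30F/L30F, and 24.1% and 22.7% with KEAP1 loss.

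The genes whose 5 changes against wild type were most like those of each member were found by the root-mean-square difference in log2, among 14779 genes compared, as a description. Closest to Alox12b were Esyt3 (0.21) and Pnpla1 (0.23), a member, and closest to Pnpla1 was Esyt3 (0.15). Aloxe3 was nearest to Lce3b (0.25), Cers3 to Gba2 and Gja1 (both 0.19), Elovl4 to Nipal4 and Gpld1 (both 0.19), Abca12 to Cpa4 (0.23) and Ugcg to Elovl1 (0.15). For the phospholipases the nearest were Acp7 for Pla2g4d (0.56), Casp1 and Glrx for Pla2g4e (both 0.33) and Eps8l1 for Pla2g4f (0.17). Pla2g4d thus had no gene as near as the others did. In RefSeq, Pla2g4d overlaps the lncRNA Gm52560, Pla2g4e the pseudogene Gm52575 and Abca12 the lncRNA Gm39659, and whether strand was used in the counting is not given in the sources used here.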

How the data were processed

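Per the submitters' processing notes, the authors quantified reads with Salmon against GRCm39; no version is recorded in the labels. Per the labels' protocols, libraries were made with a directional kit. The deposited values are log2 values, 1 table per experiment, with a minimum of 2; they step as log2(n + 4), n being reads over a library size factor. Up to 1000 reads, 100% of the recovered read numbers lay within 0.1 of a whole number. No gene low in all libraries is listed: the lowest maximum of a listed gene was 0.509 CPM in pups and 0.502 in adults.

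The log2 values were undone to normalised counts, and limma 3.58.1 (trend and robust; statmod 1.5.0, R 4.3.3) was run on log2(normalised count + 1), all groups of an experiment in 1 fit, limited to genes that reached 1 in 3 or more pup libraries or 4 or more adult libraries. For adult minus pup effects, the 2 fits' log2 changes were subtracted and tested with Welch-Satterthwaite degrees of freedom. The code was checked on simulated data. The members and all gene lists were chosen with earlier results of these data known. Named genes are the 10 members, Nfe2l2, Keap1, Nqo1 and Pla2g4a to Pla2g4c. They are also, from each of 7 pathway lists and each comparison with wild type, up to 3 genes with the largest rises and 3 with the largest falls, without group overlap and with a mean of at least 2 CPM in the higher group, not all of which are printed. For each member, the nearest genes by pattern complete them. Markers of 11 cell types were summed. Lists other than the squamous, cornifying, fibroblast, striated muscle and gland lists were leukocytes, hair and sebaceous gland, smooth muscle, endothelium, adipose tissue, and nerve and glia. Leukocyte markers summed to 17542.3 to 23976.5 with adult KEAP1 loss and 5987.3 to 10791.9 in wild type. Hair and sebaceous gland markers (5 of 11 listed) summed to 2590.7 to 3997.6 with adult KEAP1 loss and 83.7 to 470.8 in other adults. Of these 5, however, 1 was called higher and 4 lower with adult KEAP1 loss, so the sum does not describe the list. Of the smooth muscle, endothelium, adipose, and nerve and glia markers, 5, 3, 0 and 2 were called with adult KEAP1 loss. Alternatives were other offsets, scalings and filters, limma-voom, equal depth, only the groups compared, a replicate block, 2 marker covariates and leaving out each library.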

Additional observations from a re-analysis of the deposited data

Results flagged for a closer look

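There were 40 checks, each of 1 member in 1 adult group of 4 libraries. In 3 of them, 1 library had a log2 gap to the nearest other that was large for the range of the group. Chance gives about 1 in 20 for a single check, but the checks share libraries and are not independent. The 3 cannot be judged against that rate. Alox12b read 3632.4 in L30F/+ library 2, Pnpla1 801.9 in wild-type library 4 and Ugcg 2644.4 in L30F/L30F library 3. Each of these libraries was also the lowest of its group in the cornifying marker sum.

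All 10 genes differed in their response between adults and pups. The adult minus pup differences of log2 fold changes for L30F/L30F were -5.48 for Alox12b, -6.90 for Aloxe3, -3.42 for Cers3, -5.57 for Elovl4, -6.61 for Abca12, -5.38 for Pnpla1, -2.96 for Ugcg, -8.92 for Pla2g4d, -3.27 for Pla2g4e and -4.12 for Pla2g4f. For KEAP1 loss they were, in the same order, -5.68, -7.51, -3.42, -5.81, -7.18, -6.03, -3.00, -8.33, -3.49 and -5.49. The adjusted p-values (limma estimates, Benjamini-Hochberg) were 3.6e-13 to 2.5e-05, and age and Cre system cannot be told apart.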

How the results depend on the processing

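All 10 pup calls against wild type and all 10 adult minus pup differences, for both genotypes, kept direction and call under every alternative run. Of the members' values under alternatives, 1260 kept direction and call, 44 lost and 15 gained a call and 1 reversed, and over leave-outs 1645 kept, 68 lost and 17 gained a call; 30 values called by neither setting changed sign. Member counts moved as follows. For pup L30F/L30F against KEAP1 loss (4), they were 2 with total-count scaling, 1 with only the groups compared, 2 with the replicate block, 3 with upper-quartile scaling or the striated covariate, 0 with the squamous covariate and 0 to 4 over leave-outs. For adult L30F/+ (1) they were 2 with total-count scaling, 0 with only the groups compared, 0 with either covariate and 0 to 4 over leave-outs. For adult L30F/L30F (5) the squamous covariate gave 4, only the groups compared 6 and leave-outs 2 to 5. For adult KEAP1 loss (5) each covariate gave 1, total-count scaling 7, limma-voom, the groups compared alone and the block 6, and leave-outs 4 to 7. Leave-outs gave 0 to 1 for L30F/L30F against L30F/+. For L30F/L30F against KEAP1 loss (4) both covariates gave 0, an offset of 4 or 5, total-count scaling, limma-voom and the groups compared alone 5, and leave-outs 1 to 5. For L30F/+ against KEAP1 loss (5) the striated covariate gave 0, the squamous covariate 1, total-count scaling 6, only the groups compared 4 and leave-outs 4 to 6. Genes called over the whole table moved with the squamous covariate to 2064 (from 8225) in pup L30F/L30F, 1597 (10404) in pup KEAP1 loss, 4 (875) between those, 1034 (1927) in adult L30F/+, 2220 (9290) in adult KEAP1 loss, 1063 (5248) for L30F/L30F against KEAP1 loss, 3468 (8891) for L30F/+ against KEAP1 loss, and 2393 (6369) and 1998 (8967) for the adult minus pup effects. With the striated covariate they moved to 671 (from 3249) for L30F/L30F against L30F/+ and to 3135 for the adult minus pup effect of KEAP1 loss. In other comparisons, not in the order just listed, they fell with that covariate to 89, 815, 5 and 0. With only the groups compared they moved to 185 between the pup mutants, 809 in adult L30F/+ and 1544 for L30F/L30F against L30F/+. Leave-outs gave 47 to 924 genes between the pup mutants, lowest without KEAP1-loss library 2, 623 to 2448 for adult L30F/+, lowest without wild-type library 1, and 2132 to 3314 for L30F/L30F against L30F/+. The replicate block gave 222 genes between the pup mutants, where Cers3 (adjusted p 0.052) and Pla2g4f (0.056) lost their calls; in adults it called Cers3 with KEAP1 loss (0.022) and Pla2g4e in L30F/+ (0.020) and not Pla2g4f in L30F/+ (0.058), and it changed no other member's call. Same-numbered libraries correlated at -0.104 to 0.219, so the numbers were not taken as pairs; for pup KEAP1 loss against wild type alone, all 3 numbers correlated best with their own, a hint from the data. Signs reversed with the striated level in adult KEAP1 loss for Alox12b (0.155), Cav1 (0.277), Abcg4 (-0.532) and Pla2g15 (-0.218). With the squamous level they reversed there for Nfe2l2 (0.143), Asah1 (-0.006), Abcg4 (-1.453) and Pla2g15 (-0.350). In pup KEAP1 loss the squamous level reversed Hacd1 (0.163), Plaat1 (0.718) and Ptgr2 (0.229). The cause was not tested, and markers of either covariate themselves changed with genotype. Depth limits Pla2g4d in wild-type pups, with 1 to 23 reads, where its log2 change moved from 7.97 to 9.69 over leave-outs.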
